A study of Schizosaccharomyces pombe with 8 samples.

Results

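The spliceosome genes of the fission yeast Schizosaccharomyces pombe were compared here between wild-type cells and cells that lack zfs1 function. zfs1 encodes a CCCH zinc finger protein, studied in the series as a factor that binds mRNA and makes it less stable. The genes were chosen by name: every gene whose symbol starts with prp, cwf, lsm or usp followed by a digit, together with dbr1 and cdc5. The rule found 59 genes among 2899 genes with a single name, each with 1 probe set, and all 59 had a value on every array and could be tested. prp24, which the rule also covers, was not analysed here. Both strains were grown at 30 °C to an A600 of 1 in Edinburgh minimal medium with adenine, histidine, leucine, lysine and uracil at 50 mg/l each. RNA of 4 replicate cultures per strain was hybridised to 1 Affymetrix array per culture, 8 arrays in all. The sample titles mark the mutant as a delta of zfs1 and the source field as zfs1-deficient. The extent of the deletion, and any markers or background that the strains share, are not given in the sources used here.

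The spliceosome removes introns from precursor mRNA. U1 and U2 particles first recognise the intron's ends and branch point, the U4/U6.U5 particle then joins, and the complex built around Prp19 and Cdc5 activates it for catalysis. RNA helicases drive the steps and take the spent complex apart, and Dbr1 opens the released intron lariat so that it can be degraded. The Lsm proteins form rings on RNA: a nuclear ring with Lsm8 binds U6 RNA, and a cytoplasmic ring with Lsm1 in its place takes part in mRNA decay. Fission yeast has introns in a large share of its genes, and many prp genes were first found there or in budding yeast as mutants that fail in precursor mRNA processing.

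Signals are given on the log2 scale, converted from deposited values read as log10, and differences are zfs1-deficient minus wild type. The array medians over all yeast probe sets lay between 9.61 and 9.64. zfs1 itself (SPBC1718.07C) gave 10.48, 10.54, 10.39 and 10.62 in wild-type cultures 1 to 4 and 4.18, 4.33, 4.55 and 3.51 in the deficient cultures, at least 31.8-fold lower, a bound set by the reporter controls (adjusted p = 5.23e-07 in limma), so no array went against its label. The replicate 4 cultures of both strains stood apart from the others and had the smallest array weights (0.23 for wild type, 0.18 for the deficient strain), so counts below are also given without them. Of 7 markers of mating and meiosis, spo6 and isp3 rose and 0 fell, isp3 with 7 of 8 arrays within the range of the reporter controls and a call (adjusted p = 0.0498) kept in 1 of 8 fits with an array dropped. In the blocked limma fit 3 of the 7 markers rose, mei4 being the added one (adjusted p = 0.0209), and map2 fell (adjusted p = 0.0299). That fit called 57.1% of the markers, against 24.2% of all probe sets. The summed signal of the 7 ran from 9.34 to 9.71 in wild type and from 9.59 to 9.97 in the deficient strain. None of the 7 was listed at 0, and the part of such cells in the results on splicing genes was not tested.

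The spliceosome genes differed little between the strains, and dbr1 was the 1 gene of the 59 that passed the test. It fell by 0.68 in the deficient strain, while 0 genes rose (limma, adjusted p under 0.05 after Benjamini-Hochberg correction over 4969 probe sets). Of all probe sets 2.21% were called lower and 3.56% higher. With no adjustment, 1 gene was higher and 4 were lower at the same threshold, against 10.1% and 10.5% of all probe sets. The share called was 1.69% of the 59, against 5.78% of all probe sets tested. At the unadjusted threshold the shares were 8.47% and 20.6%. The median difference of the 59 was -0.0588, against -0.0130 over all, and 39 of the 59 (66.1%) lay below 0, against 52.6% of all. The middle 50% of the genes lay between -0.17 and 0.03. Every one of the 59 had a 95% interval, unadjusted, that stayed within a 2-fold change in either direction, and for 31 of them it stayed within 0.5 of 0. Of the 4952 probe sets tested in every fit, 4413 stayed within a 2-fold change, a smaller share than among the 59. Within 0.5 it was 2623, a share like that of the 59.

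The labels do not say that a replicate number marks a shared day or batch. Over 4914 probe sets, deviations of same-numbered cultures of the strains correlated at between 0.26 and 0.70. Those of unlike number reached 0.41, so the correlations do not establish pairing by number. The main test has no block, and a fit with the number as a block is given where it changes a call. With the block, 8 of the 59 passed, 2 higher and 6 lower, which is 13.6% against 24.2% of all probe sets (11.3% higher and 12.8% lower). The 8 were dbr1, cwf3, prp43, usp109, usp108 and prp39 on the lower side and cwf19 and cwf12 on the higher side. Without both replicate 4 cultures 3 passed (5.08% against 12.3%), dbr1 and cwf24 lower and cwf20 higher. With the block and without those cultures 4 passed (6.78% against 17.9%), dbr1, cwf3 and cwf24 lower and cwf20 higher. dbr1 was the 1 gene called in all 4 of these fits.

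**Figure D1:**
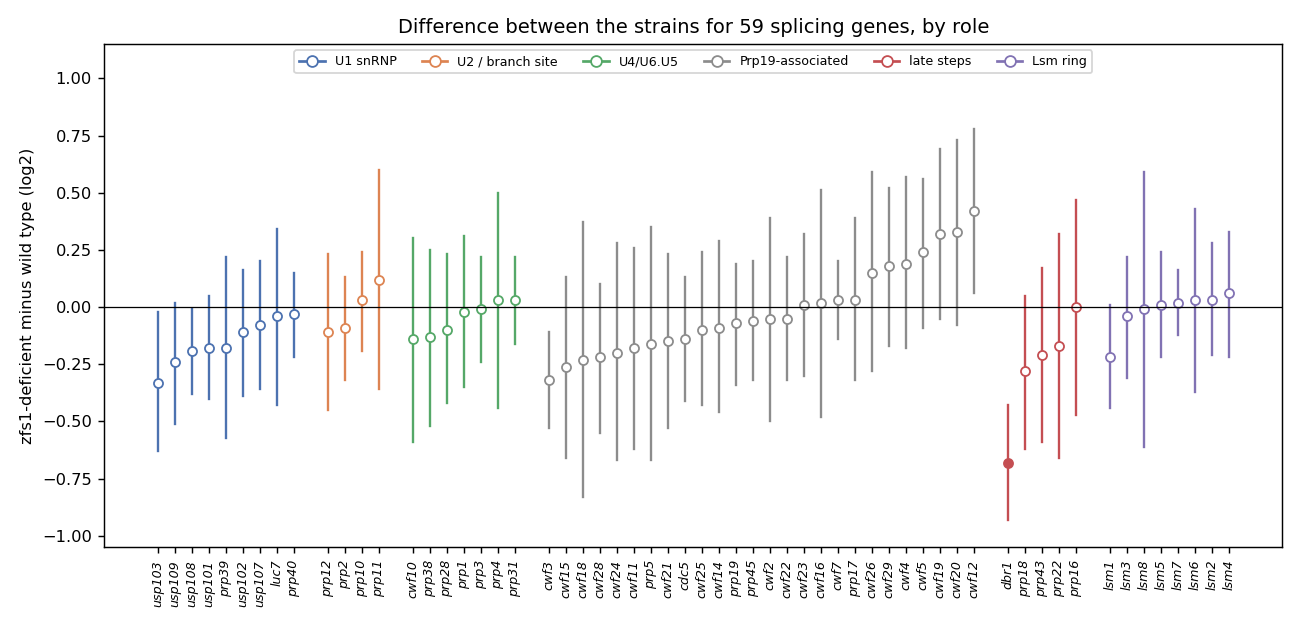
Difference between the strains (zfs1-deficient minus wild type, log2) for each of the 59 genes, grouped by role in splicing; points are limma estimates from 4 arrays per strain, bars are unadjusted 95% intervals, and a filled point marks an adjusted p under 0.05. dbr1, at -0.68, is the 1 filled point; the other 58 lie between -0.33 and 0.42.

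dbr1 (SPAC17A5.02C), the enzyme that cuts the branch bond of intron lariats, was lower in every deficient culture than in any wild-type culture. Its signal was 9.35, 9.25, 9.42 and 9.16 in wild-type cultures 1 to 4. In the deficient cultures it was 8.61, 8.50, 8.82 and 8.52. The lowest wild-type array thus stood clear of the highest deficient one, and all 4 numbered pairs went the same way. The means were 9.29 ± 0.11 and 8.61 ± 0.15 (SD, n = 4), a difference of -0.68 ± 0.11 (SE; 95% interval -0.93 to -0.43), or 1.60-fold lower (limma, adjusted p = 0.0104; 0.00117 with the replicate block). With each array left out in turn the difference ran from -0.75 to -0.64 and the call was kept in all 8 fits (highest adjusted p = 0.0410). It was -0.69 without both replicate 4 cultures (adjusted p = 0.00933). These are whole-culture RNAs, so fewer cells with the transcript and less transcript per cell cannot be told apart. Arrays that did not overlap between the strains were found for 5 of the 59 genes (8.47%), dbr1, cwf3, prp18 and usp108 lower and cwf12 higher, against 15.5% of all probe sets (7.71% lower and 7.83% higher).

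**Figure D2:**
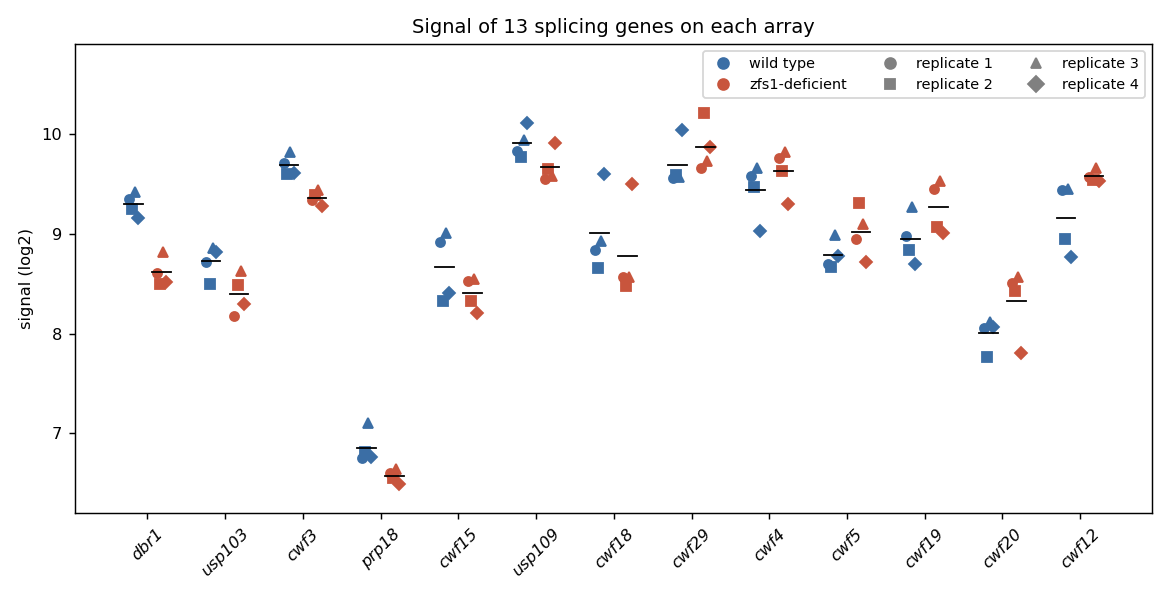
Signal (log2) on each array for dbr1 and for the 6 lowest and 6 highest differences among the genes that were not called, ordered from the lowest difference to the highest; colours are strains, symbols are replicate numbers and black lines are means of 4 arrays. dbr1 is the gene with the widest gap between its strains, from 9.16 in wild type to 8.82 in the deficient strain; cwf18 is high in replicate 4 of both strains.

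The particle that recognises the 5′ splice site is built from U1 RNA and proteins that the usp genes, prp39, prp40 and luc7 encode. None of the 9 measured genes passed in limma after adjustment. Without adjustment 2 were lower and 0 higher (22.2%, against 20.6% of all probe sets). All 9 differences lay below 0, between -0.33 and -0.03 with a median of -0.18. Of all probe sets 52.6% lay below 0. With the replicate block 3 of the 9 passed (33.3% against 24.2% of all probe sets), all lower, but without both replicate 4 cultures 0 passed, with or without the block.

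usp103 (SPBP35G2.09), a zinc finger protein of the U1 particle also called yhc1, gave 8.72, 8.50, 8.86 and 8.82 in wild type and 8.18, 8.49, 8.63 and 8.30 in the deficient strain. The deficient culture was lower in 4 of 4 numbered pairs, by very little in pair 2, and the strains overlapped. The difference was -0.33 ± 0.14 (SE; adjusted p = 0.213; 0.0698 with the block). usp109 (SPBC1289.12), a U1 protein with RNA-binding domains, gave 9.83, 9.77, 9.94 and 10.11 in wild type and 9.55, 9.65, 9.58 and 9.91 in the deficient strain, with replicate 4 the highest in both. Its difference was -0.24 ± 0.12 (SE; adjusted p = 0.278), and it passed with the block (adjusted p = 0.0408) but not with the block and without replicate 4 (adjusted p = 0.0835).

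usp108 (SPAC23D3.08) gave 10.49, 10.57, 10.56 and 10.73 in wild type and 10.31, 10.43, 10.40 and 10.42 in the deficient strain, which did not overlap. The difference was small, -0.19 ± 0.08 (SE; adjusted p = 0.221; 0.0472 with the block). prp39 (SPBC4B4.09, listed as usp105 in the probe table) gave 10.85, 10.73, 10.94 and 10.25 in wild type and 10.66, 10.57, 10.72 and 10.12 in the deficient strain. Replicate 4 was far the lowest in both strains, and within each numbered pair the deficient culture was lower. The difference of -0.18 had an SE of 0.18 without the block and 0.05 with it (adjusted p = 0.630 and 0.0490). The other 5 U1 genes differed by -0.18 for usp101 and -0.11 for usp102, both RNA-binding U1 proteins, -0.08 for usp107, -0.04 for luc7 and -0.03 for prp40 (adjusted p from 0.352 to 0.921).

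Genes of branch site recognition showed no called difference. prp2 encodes the large subunit of U2AF, which binds the polypyrimidine tract, prp10 and prp12 encode subunits of the SF3b complex of the U2 particle, and prp11 encodes a DEAD-box helicase that acts with it. Their differences were -0.09, 0.03, -0.11 and 0.12, and 0 of the 4 passed in limma (0 at an unadjusted p under 0.05; smallest adjusted p = 0.649). prp11 was higher in the deficient culture of 4 of 4 numbered pairs, with 9.04, 8.96, 9.25 and 8.36 in wild type and 9.20, 9.08, 9.26 and 8.57 in the deficient strain. Within a strain, replicate 4 differed from the other cultures by more than the strains did.

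The 7 genes of the U4/U6.U5 particle lay closest together, between -0.14 and 0.03. They were cwf10, the U5 GTPase, at -0.14, prp38 at -0.13, prp28, a DEAD-box helicase, at -0.10, prp1, a TPR-repeat protein, at -0.02, prp3 at -0.01, and prp4, a protein kinase first found in fission yeast, and prp31, both at 0.03. None passed (0 adjusted, 0 without adjustment, 0 with the block; smallest adjusted p = 0.713 without it). prp31 had the smallest spread between arrays of all 59 genes, a pooled SD of 0.05, with 9.30, 9.18, 9.29 and 9.23 in wild type and 9.27, 9.23, 9.30 and 9.32 in the deficient strain.

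The Prp19-associated group was the largest, with 26 genes, and held the highest differences of the set. The name cwf stands for complexed with Cdc5, after the purification in which these proteins were found. Of the 26, 0 passed in limma without the block. Without adjustment 1 was higher and 1 lower (7.69%, against 20.6% of all probe sets). With the block 3 passed, cwf19 and cwf12 higher and cwf3 lower (11.5% against 24.2% of all). 15 lay below 0 (57.7%, against 52.6% of all) and 11 above, with a median of -0.0557. The core genes cdc5, prp19, cwf7, prp5, prp45 and prp17 differed by -0.14, -0.07, 0.03, -0.16, -0.06 and 0.03.

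cwf12 (SPBC32F12.05C, the counterpart of budding yeast Isy1) had the highest difference of the 59. It gave 9.44, 8.95, 9.45 and 8.77 in wild type and 9.57, 9.54, 9.66 and 9.53 in the deficient strain. The deficient cultures were nearly alike (SD 0.06) and stood above all wild-type cultures, which split into a higher and a lower pair (SD 0.34). The difference was 0.42 ± 0.16 (SE; adjusted p = 0.178; 0.0332 with the block). Without both replicate 4 cultures it was 0.31 (adjusted p = 0.185).

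cwf20 (SPCC4B3.14) gave 8.06, 7.77, 8.12 and 8.07 in wild type and 8.51, 8.43, 8.57 and 7.81 in the deficient strain. Deficient cultures 1 to 3 stood above all of wild type, and culture 4 lay within the wild-type range. The difference was 0.33 ± 0.18 over all arrays (SE; adjusted p = 0.346) and 0.52 without both replicate 4 cultures (adjusted p = 0.0347). cwf19 (SPAC30D11.09), which in other species takes part in the release of introns, gave 8.98, 8.84, 9.27 and 8.70 in wild type and 9.45, 9.07, 9.53 and 9.01 in the deficient strain. It was higher in 4 of 4 numbered pairs although the strains overlapped, by 0.32 ± 0.17 (SE; adjusted p = 0.314; 0.0245 with the block; 0.209 without both replicate 4 cultures and no block).

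The remaining high genes of the group were further from the threshold. cwf5 (SPCC550.02C, counterpart of budding yeast Ecm2) gave 8.70, 8.67, 8.99 and 8.78 against 8.95, 9.31, 9.10 and 8.72, a difference of 0.24 ± 0.14 (SE; adjusted p = 0.397). cwf4 (SPBC31F10.11C, counterpart of Clf1, also called syf3) gave 9.58, 9.47, 9.66 and 9.03 against 9.76, 9.63, 9.82 and 9.30, a difference of 0.19 ± 0.17 (SE; adjusted p = 0.571; 0.0769 with the block). cwf4 was higher in every numbered pair, while cwf5 was lower in pair 4. cwf29 (SPBC887.05C, an RNA-binding protein) gave 9.56, 9.59, 9.57 and 10.04 against 9.66, 10.21, 9.73 and 9.87, a difference of 0.18 ± 0.15 (SE; adjusted p = 0.573), with 1 high array in each strain.

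On the lower side, cwf3 (SPBC211.02C, also called syf1, a helical-repeat scaffold) was the gene nearest to a call after dbr1. It gave 9.71, 9.60, 9.82 and 9.61 in wild type and 9.34, 9.39, 9.44 and 9.28 in the deficient strain. The strains did not overlap, and each had a narrow spread (SD 0.10 and 0.07). The difference was -0.32 ± 0.09 (SE; adjusted p = 0.0830; 0.0153 with the block; 0.0532 without both replicate 4 cultures; 0.0437 with both changes).

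cwf15 (SPBC337.06C) gave 8.92, 8.33, 9.01 and 8.41 in wild type and 8.53, 8.33, 8.55 and 8.21 in the deficient strain. The difference was -0.26 ± 0.18 (SE; adjusted p = 0.450). In both strains cultures 1 and 3 were the brighter ones. cwf18 (SPCP1E11.07C) gave 8.84, 8.66, 8.93 and 9.60 against 8.57, 8.48, 8.57 and 9.50, a difference of -0.23 ± 0.27 (SE; adjusted p = 0.678; 0.0800 with the block). It had the largest spread between arrays of all 59 genes, a pooled SD of 0.45, from the high signal of both replicate 4 cultures. cwf24 (SPBC13E7.02) gave 8.21, 8.19, 8.19 and 7.44 in wild type and 7.73, 7.84, 7.50 and 8.18 in the deficient strain. Cultures 1 to 3 were lower in the deficient strain and culture 4 was higher, so that the difference was -0.20 over all arrays (adjusted p = 0.657) and -0.51 without both replicate 4 cultures (adjusted p = 0.0380).

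Besides dbr1, the genes of the late steps were prp16, prp22 and prp43, helicases of the second step, of mRNA release and of intron release, and prp18, a factor of the second step. None of these 4 passed in limma (0 without adjustment either). The block added 1 call among the 4, in a fit that called 24.2% of all probe sets. prp18 (SPCC126.14) gave 6.75, 6.81, 7.10 and 6.76 in wild type and 6.60, 6.55, 6.64 and 6.49 in the deficient strain. The strains did not overlap, but the difference of -0.28 ± 0.15 (SE) did not pass (adjusted p = 0.319; 0.188 with the block). prp43 (SPBC16H5.10C) gave 11.23, 11.02, 11.45 and 10.82 in wild type and 11.12, 10.85, 11.18 and 10.52 in the deficient strain. It was lower in 4 of 4 numbered pairs, by -0.21 with an SE of 0.17 without the block (adjusted p = 0.543) and 0.05 with it (adjusted p = 0.0266; 0.0747 with the block and without replicate 4). prp22 differed by -0.17 and prp16 by less than 0.01 in size (adjusted p = 0.712 and 0.998).

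The 8 genes of the Lsm rings had the median nearest to 0 of the 6 roles, 0.0130. None passed (0 in limma after adjustment, 0 without adjustment, 0 with the block). The gene with the lowest difference was lsm1 (SPBC3D6.08C), of the cytoplasmic ring, with 10.76, 10.65, 10.82 and 10.86 in wild type and 10.59, 10.50, 10.36 and 10.76 in the deficient strain. It was lower in 4 of 4 numbered pairs, by -0.22 ± 0.10 (SE; adjusted p = 0.261; 0.0597 with the block; 0.0394 with array weights). The fit with array weights called 30.5% of all probe sets. lsm8 (SPCC1840.10), which replaces lsm1 in the nuclear ring, gave 7.68, 8.22, 7.60 and 8.77 against 7.81, 8.12, 7.82 and 8.47, a difference of -0.01 ± 0.27 (SE; adjusted p = 0.987). The interval for lsm8, from -0.61 to 0.59, was the widest of the ring genes.

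The genes of the 6 proteins common to both rings, lsm2 to lsm7, differed by 0.03, -0.04, 0.06, 0.01, 0.03 and 0.02 in that order (adjusted p from 0.851 to 0.976). lsm7 (SPCC285.12) was the steadiest, with 11.24, 11.30, 11.31 and 11.34 in wild type and 11.30, 11.40, 11.30 and 11.24 in the deficient strain, and its interval ran from -0.12 to 0.16.

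The signal of these genes varied with the replicate number in both strains. Replicate 4 was the lowest array of its strain in both strains for 25 of the 59 genes (42.4%, against 28.2% of all probe sets) and the highest in both for 10 (16.9%, against 25.2%). Replicate 3 was the highest in both strains for 23 genes (39.0%, against 11.1% of all) and the lowest in both for 0 (3.08% of all). Replicate 2 was the lowest in both for 10 (16.9%, against 10.1%). Over the 59 genes, the deviations of same-numbered cultures from their strain means correlated at 0.48, 0.43, 0.67 and 0.73 for numbers 1 to 4. Cultures of unlike number correlated at between -0.72 and 0.73, so the highest of these was as high as the highest same-number value to 2 decimals. These values describe 8 arrays, and the points of each share 2 of them. The median pooled SD of the 59 genes was 0.22 over 4 cultures per strain and 0.12 without replicate 4.

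**Figure D3:**
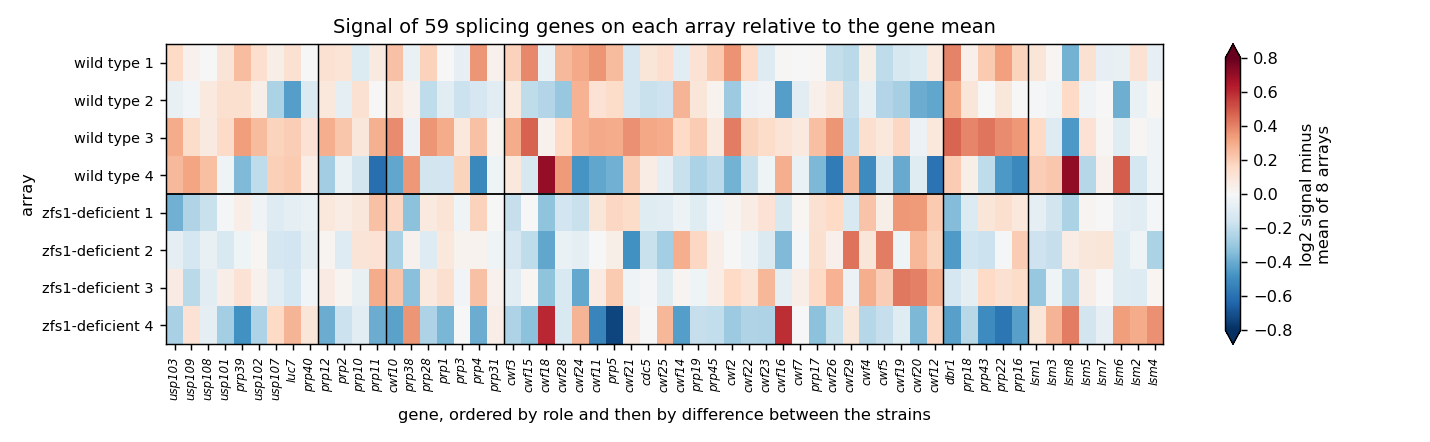
Signal (log2) of each of the 59 genes on each of the 8 arrays minus the gene's mean over the arrays; columns are genes ordered by role and then by difference between the strains, the horizontal line divides the strains and colours saturate at 0.8. The replicate 4 rows of both strains carry the strongest colours, for example cwf18 high and prp11 low in both, and the dbr1 column is red in wild type and blue in the deficient strain.

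All 5 helicase genes of the prp series measured here were lower in replicate 4 than in the mean of the other cultures, in both strains. Replicate 4 was the lowest array of both strains for 4 of the 5. Of all probe sets, 28.2% were lowest in both strains, and 2037 of 4952 were below the mean of the others in both. The shift was not particular to the prp names: brr2, another helicase gene, was lower by -0.99 and -0.98. For prp11, prp16, prp22, prp28 and prp43, the median of replicate 4 minus the mean of the other cultures was -0.68 for wild type and -0.58 for the deficient strain, against -0.01 and -0.02 over all probe sets. prp22 (SPAC10F6.02C) gave 10.02, 9.78, 10.07 and 9.23 in wild type and 9.82, 9.68, 9.81 and 9.11 in the deficient strain. prp16 (SPBC1711.17) gave 8.65, 8.47, 8.82 and 7.96 in wild type and 8.56, 8.68, 8.62 and 8.04 in the deficient strain. In both genes replicate 4 lay below every other culture of its strain by more than 0.5. prp5, a WD-repeat protein of the Prp19 complex, was lower in replicate 4 by -0.61 and -0.87, cwf11 by -0.67 and -0.58, and cwf10 by -0.65 and -0.47.

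Lsm genes mostly went the other way, 5 of 8 above the mean of the other cultures in both strains, lsm4 by only 0.01 in wild type. Of all probe sets, 1878 of 4952 were above in both. Of the 8 lsm genes, 4 were highest in replicate 4 in both strains, lsm1, lsm3, lsm6 and lsm8, and lsm5 was lowest in both. The share highest in both was 50.0%, against 25.2% of all probe sets. It was 42.2% of 45 splicing genes outside the 59, so the rise was not particular to the lsm genes. lsm6 (SPAC2F3.17C) gave 10.66, 10.33, 10.62 and 11.20 in wild type and 10.64, 10.62, 10.62 and 11.05 in the deficient strain. lsm8 was higher in replicate 4 by 0.93 and 0.56, cwf18 by 0.79 and 0.96, cwf16 by 0.40 and 0.78, and prp38 by 0.37 and 0.56. Across the 59 genes the shift of replicate 4 in wild type correlated with that in the deficient strain at 0.73 (0.70 over 4914 probe sets), as a description of these arrays. For 9 genes the shift had opposite signs in the strains, most widely for cwf24, at -0.75 and 0.49. The replicate 4 cultures were singled out after the data were seen, and what sets them apart was not tested.

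**Figure D4:**
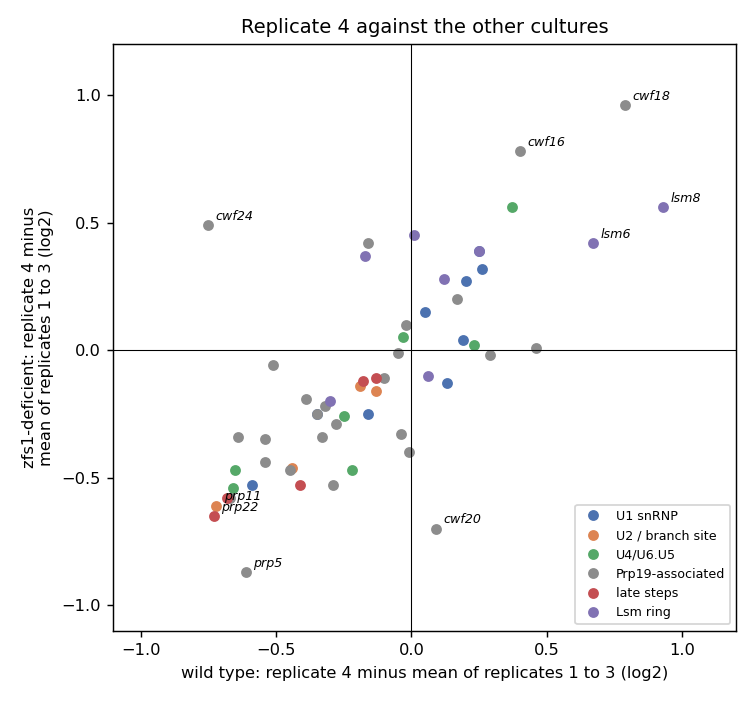
Replicate 4 minus the mean of replicates 1 to 3 (log2) in wild type (horizontal) and in the zfs1-deficient strain (vertical), 1 point per gene for the 59 genes, coloured by role. Most points lie along the diagonal, with cwf18 and lsm8 high in both strains and prp22, prp11 and prp5 low in both; cwf24, at -0.75 and 0.49, lies off it.

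Other genes of the pathway came from a list of 72 names, of which 45 had a measured gene outside the 59. When p was not adjusted, 3 were higher and 4 lower (15.6%, against 20.6% of all). In limma with adjustment 0 rose and 1 fell (2.22%, against 5.78% of all), with a median difference of 0.0234. The gene that fell was spf38 (SPBC1289.11), a WD-repeat protein also called cwf17. It gave 9.68, 10.06, 9.77 and 10.01 in wild type and 9.37, 9.32, 9.38 and 9.46 in the deficient strain, which did not overlap. The difference was -0.50 ± 0.11 (SE; adjusted p = 0.0329; 0.00634 with the block), and dropping arrays singly kept the call in 2 of 8 fits (adjusted p up to 0.102).

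The next lowest were sap61, a subunit of the SF3a complex, at -0.47 (adjusted p = 0.0629; 0.0198 with the block), snu23 at -0.35 (adjusted p = 0.463) and cyp1, a cyclophilin, at -0.30 (adjusted p = 0.198; 0.0353 with the block). The highest were slu7, a factor of the second step, at 0.64 (adjusted p = 0.118; 0.00726 with the block), syf2 at 0.63 (adjusted p = 0.415) and sap49, an SF3b subunit, at 0.45 (adjusted p = 0.0710; 0.0217 with the block). On 2 arrays syf2 did not exceed the brightest reporter control. With the block 11 of the 45 passed, 5 higher and 6 lower (24.4%, against 24.2% of all). Without both replicate 4 cultures 5 passed, 2 higher and 3 lower (11.1%, against 12.3%).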

How the data were processed

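Total RNA (1 µg) was amplified into biotin-labelled cRNA, of which 5 µg was hybridised for 16 h, per the labels' protocols. The labels name a nematode array, whereas the probe table used here pairs the probe sets with fission yeast genes. The deposited values are read as log10 signals: array medians lay between 2.89 and 2.90 and maxima between 3.94 and 3.99, and the base is inferred, not stated. Signals came from the GeneChip Operating Software, per the labels; scaling and probe summary are not given in the sources used here. Another base would scale every log2 value by 1 factor.

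Values were converted to log2 and otherwise used as deposited. The 17 reporter controls were left out, and 4969 of 4994 probe sets with at least 2 values per strain were tested with limma 3.58.1 in R 4.3.3 (variance trend, 2-sided, Benjamini-Hochberg over all, threshold 0.05). All 59 genes lay above the brightest control on every array. On simulated data, drawn with no shared replicate effect, the fit called 36% of differences of 0.5 and 79% of differences of 1. Of its calls 3.36% were false. A probe set that differs by such amounts can thus go without a call. For the 59 genes the unadjusted intervals set closer limits. All 59 stayed within a 2-fold change in either direction, and 31 stayed within 0.5 of 0. Probe-table symbols were brought up to date through their gene identifiers (ASM294v3), which changed 3 of the 59. Figures used matplotlib 3.10.9.

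Deviations of same-numbered arrays correlated at 0.37, 0.33, 0.26 and 0.70 over 4914 probe sets, each over the 0.1 required, so a fit with the number as a block stands beside the reported, unblocked one where it changes a call. Arrays of unlike number correlated at between -0.54 and 0.41 over the same probe sets. The rule for named genes gave array values for zfs1, called genes and the 6 largest uncalled differences in each direction; other genes with array values were picked with their values in view. The members, roles and lists were chosen with earlier results of these data known. Alternatives were the block, centring, quantile normalisation, an offset, a filter on dim signals, no variance trend, array weights and left-out arrays. The number of arrays limits the precision. The p-values set the difference between the strains against the spread between these cultures. In the blocked fit that spread is what remains after the replicate number. No sequences are printed, since none were used here.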

Additional observations from a re-analysis of the deposited data

Results flagged for a closer look

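Single arrays stood far from the other 3 of their strain, by Dixon's test, in 12 of 120 gene and strain combinations (59 genes and zfs1); chance flags about 1 in 20. Of the 12, 8 were replicate 4 of the deficient strain. Low there were cwf11 at 9.23 (others 9.76 to 9.85), prp1 at 9.36 (9.81 to 9.85), prp12 at 9.68 (10.10 to 10.16), prp17 at 8.73 (9.18 to 9.22) and prp5 at 8.87 (9.65 to 9.81). High there were cwf18 at 9.50 (8.48 to 8.57), lsm6 at 11.05 (10.62 to 10.64) and usp107 at 10.22 (9.93 to 9.97). In wild-type replicate 4, cwf24 was low at 7.44 (8.19 to 8.21) and cwf29 high at 10.04 (9.56 to 9.59). In wild type, luc7 was low in replicate 2 at 8.56 (9.12 to 9.21), and prp18 was high in replicate 3 at 7.10 (6.75 to 6.81).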

How the results depend on the processing

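The count of 1 called spliceosome gene, dbr1, was the same with centred medians, quantile normalisation, an offset of 64, no variance trend, the dimmest 25% left out (51 of the 59 genes kept) and each array left out (1 to 1). It was 9 with array weights (2 higher, 7 lower), 8 with the replicate block, 3 without both replicate 4 arrays, and 4 with the block and without those arrays, a fit added after the data were seen. The 9 with array weights were 15.3% of the 59, against 30.5% of all probe sets. The same 4 settings gave 12, 11, 5 and 7 of the other splicing genes, and 1517, 1201, 609 and 888 of all probe sets. With an array left out, the other splicing genes gave 0 to 3 (0 in 6 of the 8 fits) and all probe sets 103 to 306. The median of the 59 differences ran from -0.1200 to -0.0198 with an array left out, below 0 throughout. Cases were counted for zfs1, dbr1, the 6 largest uncalled differences in each direction, the lsm genes and the genes called with the block. An alternative gave a call that the unblocked fit did not in 16 cases, and none reversed a called direction. The remaining genes of the 59, cwf24 among them, the markers and the other splicing genes are not in this count. Some of the 7 genes called lower with array weights are among the remaining genes. Each gene had 1 probe set, so the lowest-mean probe set could not be tried. No array of the 59 genes was as dim as its brightest reporter control.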

Other observations

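Neighbouring genes were looked up in the gene table's order of protein-coding genes (ASM294v3), after values were seen. usp109 lies next to spf38, the splicing gene that fell, and the pair differed by -0.24 and -0.50 (limma, adjusted p = 0.278 and 0.0329), so usp109 was not called. prp10 lies next to pdt1, which rose by 0.59 ± 0.10 (SE; limma, adjusted p = 0.0125), while prp10 differed by 0.03. usp102 and prp39 flank ght2, a hexose transporter gene that rose by 0.61 ± 0.12 (SE, n = 4 per strain; limma, adjusted p = 0.0226), while usp102 and prp39 differed by -0.11 and -0.18. dbr1 lies next to rec25, a meiotic recombination gene, which differed by 0.30 ± 0.28 (SE; adjusted p = 0.596). cwf22 and cwf24, also neighbours, differed by -0.05 and -0.20, and prp11 and cwf23 by 0.12 and 0.01.

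Outside the 59 genes, the largest shifts of replicate 4 among splicing genes given here were those of bpb1, the branch point binding protein, and brr2, the helicase that unwinds U4 from U6. Replicate 4 differed from the mean of the other cultures by -1.88 (wild type) and -1.38 (deficient strain) for bpb1, and by -0.99 and -0.98 for brr2. Between the strains they differed by -0.12 ± 0.48 and 0.05 ± 0.29 (SE; adjusted p = 0.928 and 0.954).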
